A study of Rattus norvegicus with 10 samples.

Results

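The genes of dopamine and noradrenaline signaling examined here are the synthesis enzymes Th, Ddc and Dbh, the transporters Slc6a3, Slc6a2 and Slc18a2, and the dopamine receptors Drd1 and Drd2. All probe sets that the array annotation assigns to one of these 8 genes alone were taken, which gave 13 of the 31042 non-control probe sets, and 0 probe sets of these genes were shared with another gene. They were read in the hypothalamus of 10 male Wistar rats, with 1 Affymetrix Rat Genome 230 2.0 array per rat. The C group (Chow 1 to 5) ate solid feed and the P group (Powder 1 to 5) ate powdered feed for 8 days from 3 weeks of age, so that all rats were 4 weeks old at sampling. All rats of both groups had eaten powdered feed during a short acclimatization, and bedding and water supply gave little to chew. The study asked whether the stimuli of chewing alter gene expression in the hypothalamus. The values are log2 signals, and each difference is the mean of the C group less that of the P group (C minus P).

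Catecholamines are made from tyrosine. Th (tyrosine hydroxylase) catalyzes the rate-limiting step to DOPA, Ddc (aromatic amino acid decarboxylase) turns DOPA into dopamine, and Dbh (dopamine beta-hydroxylase) turns dopamine into noradrenaline in noradrenaline neurons. Slc18a2 loads monoamines into vesicles, while Slc6a3 and Slc6a2 take dopamine and noradrenaline back up from outside the cell. In the hypothalamus, dopamine neurons of the arcuate and periventricular nuclei restrain prolactin release from the pituitary through Drd2, whereas noradrenaline reaches the region in fibers whose cell bodies, and most of whose mRNA, lie in the brainstem.

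The summarization used by the authors leaves a probe set almost without variation where its probes share no signal, and 28736 of all probe sets (92.6%) had a standard deviation (SD) below 0.001 over the rats, against 1391 (4.48%) with an SD above 0.1. Of the 13 catecholamine probe sets, 8 were of the second kind and covered 6 genes, Th, Ddc, Slc6a3, Slc18a2, Drd1 and Drd2. The other 5 were flat, with SDs between 0.000143 and 0.000483. They were the only probe sets of Dbh (1370564_at, mean 6.81 in both groups) and of Slc6a2 (1387418_a_at, 6.22 for C rats and 6.21 for P rats), 1 of the 2 probe sets of Ddc (1375317_at, 7.23 in both), 1 of the 3 of Slc18a2 (1369132_at, 7.54 in both) and 1 of the 2 of Drd1 (1368479_at, 6.68 in both). Both genes particular to noradrenaline neurons were thus flat, which says that their probes carried no common signal and does not show that the transcripts were absent. The arrays otherwise stood close together, with array medians from 7.37 to 7.38 and pairwise correlations from 0.997 to 0.9991. Because the tissue was read in bulk, fewer cells of a type and less RNA per cell cannot be told apart in any of these values.

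Th signals were 8.98, 8.96, 9.98, 9.65 and 8.82 in Chow 1 to 5, against 8.91, 8.93, 9.04, 9.27 and 9.55 in Powder 1 to 5. Chow 3 and Chow 4 lay above all rats of the P group, the other 3 rats of the C group lay at the low end, and the groups overlapped. The C group averaged 9.28 ± 0.51 and the P group 9.14 ± 0.27 (SD, n = 5 each), a difference of 0.14 with a standard error (SE) of 0.25. Ddc, the next enzyme, had signals of 9.10, 9.09, 9.63, 9.38 and 9.18 in Chow 1 to 5, against 9.18, 9.19, 9.24, 9.28 and 9.36 in Powder 1 to 5 (1368064_a_at). Here too Chow 3 and Chow 4 were the highest rats, while Chow 1 and Chow 2 lay below the whole P group. The difference was 0.026 (SE 0.10).

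The dopamine transporter Slc6a3 had the widest range of the 13 probe sets, 1.83 log2 units over the rats (1368601_at). Its signals were 8.94, 8.54, 10.19, 9.59 and 8.57 in Chow 1 to 5, against 8.65, 8.35, 8.89, 9.21 and 9.58 in Powder 1 to 5. The order was close to that of Th: Chow 3 was highest, Chow 4 and Powder 5 came next at nearly the same level, and Powder 2 was lowest. The means were 9.16 ± 0.71 for C rats and 8.94 ± 0.48 for P rats (SD, n = 5 each), a difference of 0.23 (SE 0.37). The other Slc6a3 probe set, 1368602_at, had signals of 7.17, 6.84, 7.80, 7.47 and 6.97 in Chow 1 to 5, against 7.06, 6.85, 7.08, 7.35 and 7.40 in Powder 1 to 5, and followed the first one with r = 0.98 over the 10 rats. Its difference was 0.10 (SE 0.19).

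Slc18a2, the vesicular monoamine transporter, is used by dopamine, noradrenaline, serotonin and histamine neurons alike. Its probe set 1369131_at had signals of 8.72, 8.62, 9.02, 8.87 and 8.78 in Chow 1 to 5, against 8.69, 8.66, 8.64, 8.84 and 8.81 in Powder 1 to 5. Chow 3 and Chow 4 were again above the P group, and Chow 2 was the lowest rat. The probe set 1384933_at had signals of 8.70, 8.67, 9.02, 8.89 and 8.81 in Chow 1 to 5, against 8.69, 8.67, 8.75, 8.88 and 8.87 in Powder 1 to 5. The differences were 0.075 (SE 0.076) and 0.044 (SE 0.074), and both probe sets ranged over at most 0.40 log2 units.

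Of the receptors, Drd2, which is inhibitory and also serves as autoreceptor of dopamine neurons, had signals of 7.50, 7.75, 7.94, 7.89 and 7.74 in Chow 1 to 5, against 7.74, 7.62, 7.75, 7.84 and 7.93 in Powder 1 to 5 (1368708_a_at). Chow 3, Powder 5, Chow 4 and Powder 4 were its highest rats, in that order, and Chow 1 was lowest. The difference was -0.0095 (SE 0.089), and it was the only one of the 8 varying probe sets with a lower mean in the C group. Drd1, which couples to stimulatory G proteins, followed another order. Its signals were 7.79, 7.33, 7.50, 7.29 and 7.58 in Chow 1 to 5, against 7.49, 7.37, 7.49, 7.41 and 7.40 in Powder 1 to 5 (1368478_at). Chow 1 was the highest rat and Chow 4 the lowest, so the C group spanned both ends and the P group lay between them. The difference was 0.069 (SE 0.090).

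**Figure D1:**
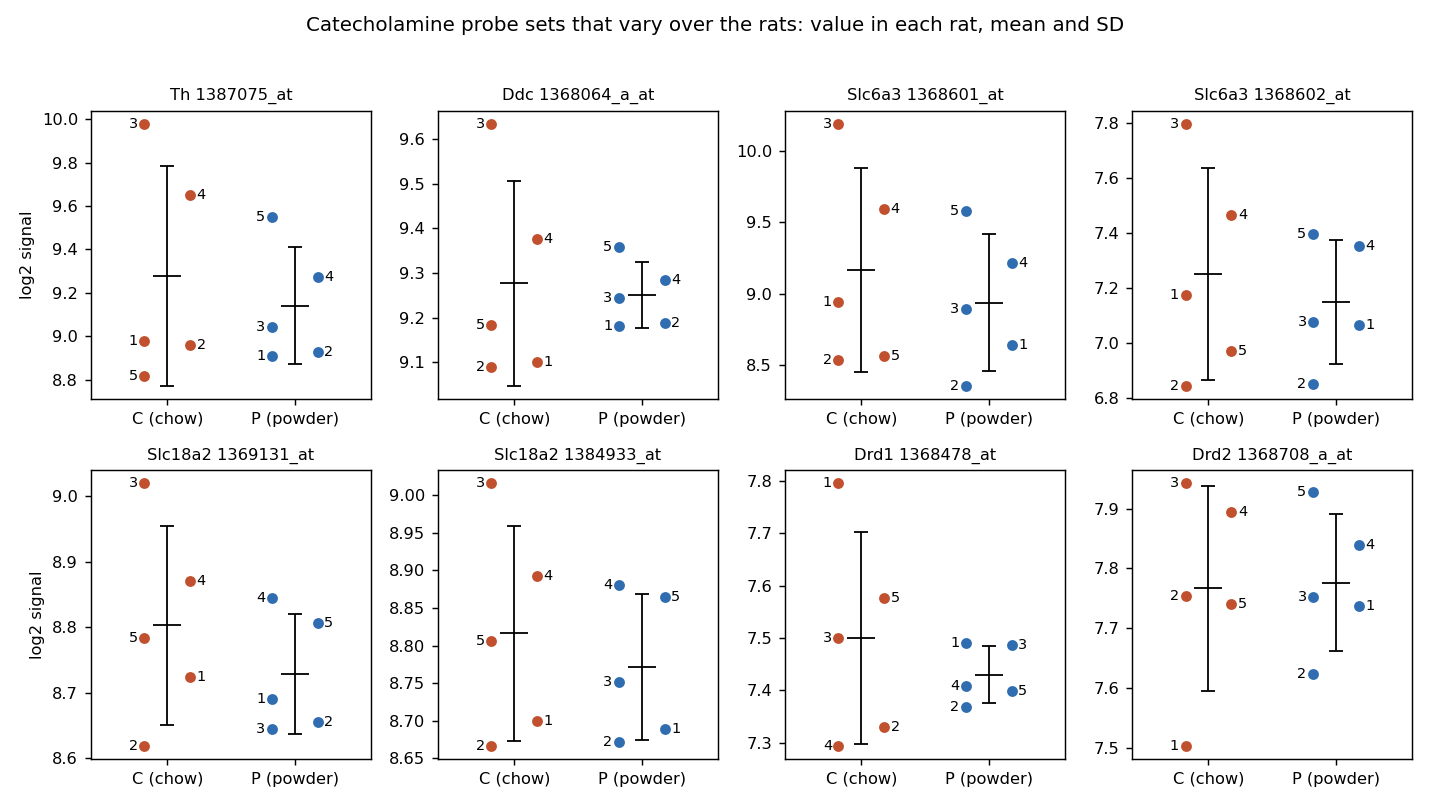
Log2 signal of the 8 catecholamine probe sets with an SD above 0.1, by group (C group left, P group right); points are rats with their number beside them, and the black marks give the mean and SD of the 5 rats of a group. Chow 3 is the highest rat in 7 of the 8 panels, Chow 1 is the highest in the panel of Drd1, and the groups overlap in every panel.

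By rank products, the test of the study, 2 of the 13 probe sets were called higher in the C group at a false discovery rate (FDR) below 0.05, where 0.921% of all 31042 probe sets were called higher, and 0 were called lower, where 0.805% were called lower. Slc6a3 1368601_at had an FDR of 0.00867 and Th an FDR of 0.0408. The other Slc6a3 probe set had an FDR of 0.0597 and both varying Slc18a2 probe sets had FDRs of 0.0839 and 0.155. Of all calls of this test, 279 of 286 higher and 203 of 250 lower ones fell on probe sets that vary, of which 20.1% were called higher and 14.6% lower, so 2 of 8 varying catecholamine probe sets stood near the share of varying probe sets in general. The linear model of limma, which weighs each probe set by its own spread between rats, called 0 of the 13 and 0 of the 31042 probe sets (0%), with an adjusted p of 0.9995 for every member and 0.986 as the smallest adjusted p of all. At an unadjusted limma p below 0.05 it gave 1100 probe sets (3.54%), and 0 of the 13. In exact two-sided permutation tests over all 252 assignments of 5 against 5 rats, the varying probe sets had p between 0.381 and 0.937, where the design allows values down to 0.00794. The groups were fully separated in 0 of the 13 probe sets, against 134 of all probe sets (0.432%). The median difference of the 8 varying probe sets was 0.072, with 7 above 0, beside a median of 0.031 for all 1391 varying probe sets. These 8 cover 6 genes and are not independent: the probe sets of Slc6a3 had r = 0.98 with each other, and those of Slc18a2 r = 0.95.

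Single rats decided both calls. Without Chow 3, the difference of Th was -0.038 and that of Slc6a3 1368601_at was -0.029, and neither was called. Without Chow 4 the differences were 0.044 for Th and 0.12 for Slc6a3, also not called, and without Powder 2 they were 0.084 and 0.082, not called. Over the 10 fits that each left out 1 rat, Slc6a3 1368601_at was called in 7 and Th in 6, Th being lost without Powder 1 as well. The differences of Ddc (-0.064), Slc6a3 1368602_at (-0.035) and Slc18a2 1384933_at (-0.0054) likewise turned below 0 without Chow 3, and that of Slc18a2 1369131_at came closest to 0 without it, at 0.021. For the receptors the deciding rat was another one: without Chow 1 the difference of Drd1 was -0.0046 and that of Drd2 was 0.056. The small difference of Drd2 was also above 0 without Powder 4 or without Powder 5. The fits without Powder 4, without Powder 5 and without Chow 2 each called 4 of the 13, with Slc6a3 1368602_at and Slc18a2 1369131_at added, and the fit without Chow 5 called 3. Of the 286 probe sets called higher on all rats, 181 (63.3%) were still called without Chow 3, 117 (40.9%) without Chow 4 and 229 (80.1%) without Powder 2. Chow 1 and Chow 4 form a branch of their own in the clustering of the study. Without both of them, 40 (14%) were still called, and 0 of the 13 catecholamine probe sets were.

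**Figure D2:**
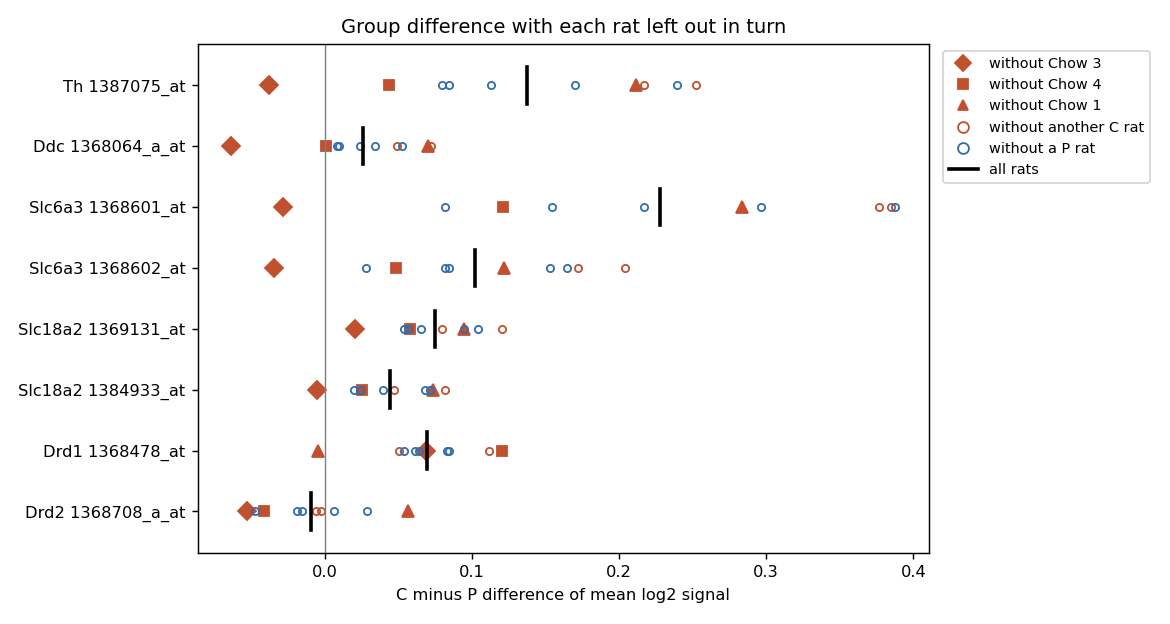
C minus P difference of mean log2 signal for the 8 varying probe sets with each rat left out in turn; the black bar is the difference over all rats, red marks are fits without a C rat and blue circles fits without a P rat. Diamonds (without Chow 3) sit at the low end for the synthesis and transport genes and below 0 for all of them except Slc18a2 1369131_at, whereas for Drd1 the triangle (without Chow 1) lies lowest, at -0.0046.

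The spread between rats was wider in the C group for all 8 varying probe sets. The SD of the C group was 1.47 to 3.68 times that of the P group, with a median ratio of 1.68, the highest ratio being that of Drd1 (0.20 for C rats and 0.055 for P rats). A wider spread in the C group was common on these arrays, since 81.3% of the 1391 varying probe sets had it, with a median ratio of 1.46.

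The synthesis and transport genes went up and down together from rat to rat. The 4 highest rats were Chow 3, Chow 4, Powder 4 and Powder 5 for 7 of the 8 varying catecholamine probe sets, all but Drd1, whereas 22 of the 1391 varying probe sets (1.58%, these 7 included) had the same 4 rats on top. As a mean over the 6 varying probe sets of Th, Ddc, Slc6a3 and Slc18a2, Chow 1 to 5 deviated from the average rat by -0.11, -0.26, 0.56, 0.26 and -0.19, against -0.18, -0.27, -0.10, 0.094 and 0.21 in Powder 1 to 5. The high rats were therefore 2 of each group, and the low rats 3 of each group.

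Over the 10 rats, 26 pairs of varying probe sets of different catecholamine genes were correlated. The 13 pairs among synthesis and transport genes had Pearson r between 0.85 and 0.97 (median 0.91) and Spearman rho between 0.66 and 0.90 (median 0.84). All 13 lay above 0.8, a value that 8.43% of the 514467 pairs of varying single-gene probe sets exceeded, where the median r was 0.13. The 13 pairs share the probe sets of Th, Ddc, Slc6a3 and Slc18a2, so they are not independent of each other. The closest pair was Th with Slc6a3 1368601_at (r = 0.97, permutation p = 5e-05; rho = 0.89, permutation p = 0.00121). Th and Ddc, consecutive enzymes, had r = 0.93 (permutation p = 0.00028) and rho = 0.81 (permutation p = 0.00695), and Ddc and Slc18a2 1384933_at had r = 0.92 (permutation p = 0.00025) and rho = 0.88 (permutation p = 0.00157). The loosest was Th with Slc18a2 1369131_at (r = 0.85, permutation p = 0.00217; rho = 0.66, permutation p = 0.0442). The unadjusted p of r was at most 0.00217 in all 13 pairs. These pairs belong to a family of 8082, each varying catecholamine probe set against every varying single-gene probe set of another gene, and after Benjamini-Hochberg adjustment over that family 0 of the 8082 pairs (0%) passed 0.05. The smallest adjusted p of a pair of catecholamine genes was 0.0673 for r, for Th with Slc6a3, and 0.384 for rho.

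The correlations changed little when each group's mean was taken out, after which they lay between 0.85 and 0.97. They leaned on the highest rats in part. Without the 2 rats farthest from the median of the first gene, which were Chow 3 and Chow 4 in these 13 pairs, r stayed positive, between 0.56 and 0.92 (median 0.77), with 0.92 for Th and Slc6a3 1368601_at, 0.81 for Th and Ddc, and 0.56 for Th and Slc18a2 1369131_at. With 1 rat left out at a time, the 13 correlations were between 0.71 and 0.98.

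**Figure D3:**
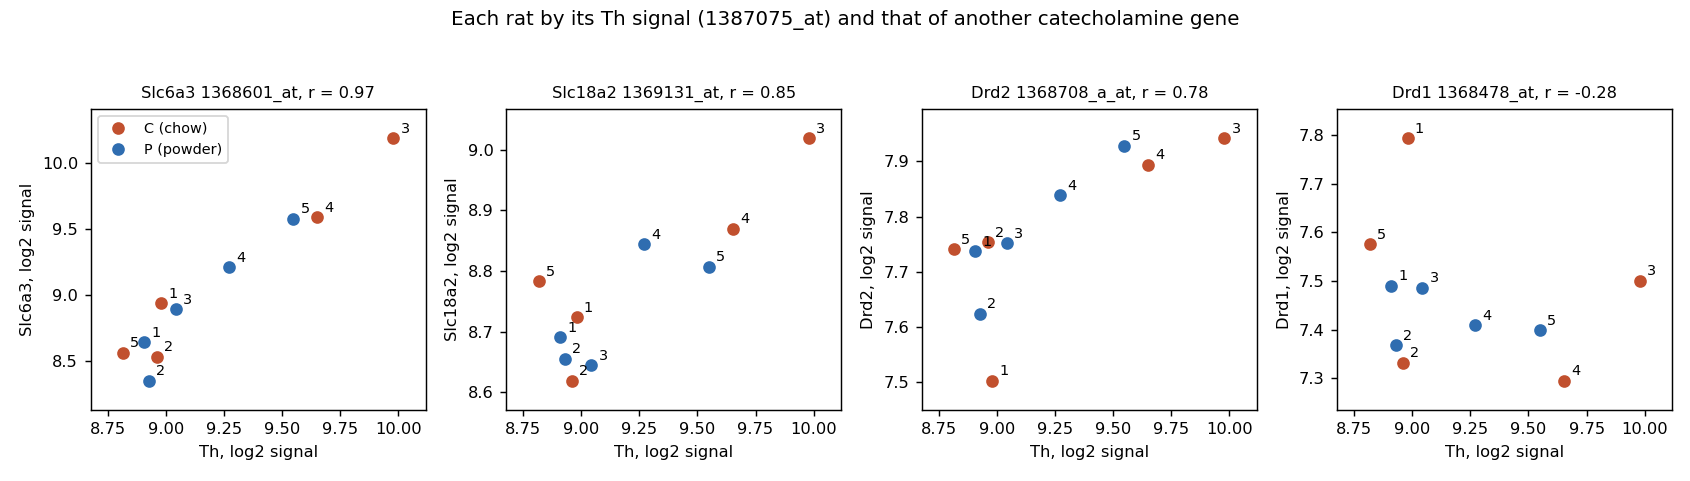
Log2 signal of Slc6a3, Slc18a2, Drd2 and Drd1 (vertical axes, 1 panel each) against that of Th (horizontal axis) in the 10 rats, with C rats in red, P rats in blue and rat numbers beside the points. Slc6a3 follows Th most closely (r = 0.97) with rats of both groups along 1 line, Drd2 follows it with Chow 1 below the others (r = 0.78), and Drd1 does not rise with it (r = -0.28).

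The receptors parted. Drd2 was positively correlated with all 6 synthesis and transport probe sets, with r between 0.67 and 0.80 and rho between 0.62 and 0.79. With Th it had r = 0.78 (permutation p = 0.00802) and rho = 0.79 (permutation p = 0.00893), and with Slc18a2 1384933_at r = 0.80 (permutation p = 0.00488) and rho = 0.73 (permutation p = 0.0198). None passed after adjustment (smallest adjusted p = 0.387), and r was between 0.47 and 0.77 without the 2 farthest rats. Drd1 had negative r in all 7 of its pairs, but rho was above 0, at 0.067 to 0.12, in its 4 pairs with Slc6a3 and Slc18a2. With the synthesis and transport probe sets r lay between -0.28, for Th (permutation p = 0.427; rho = -0.25, permutation p = 0.491), and -0.012, and for Ddc, Slc6a3 and Slc18a2 these values changed sign with single rats left out. With Drd2 it had r = -0.59 (permutation p = 0.073) and rho = -0.35 (permutation p = 0.329), which was 0.11 without Chow 1 and Chow 4 and so rested on them.

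**Figure D4:**
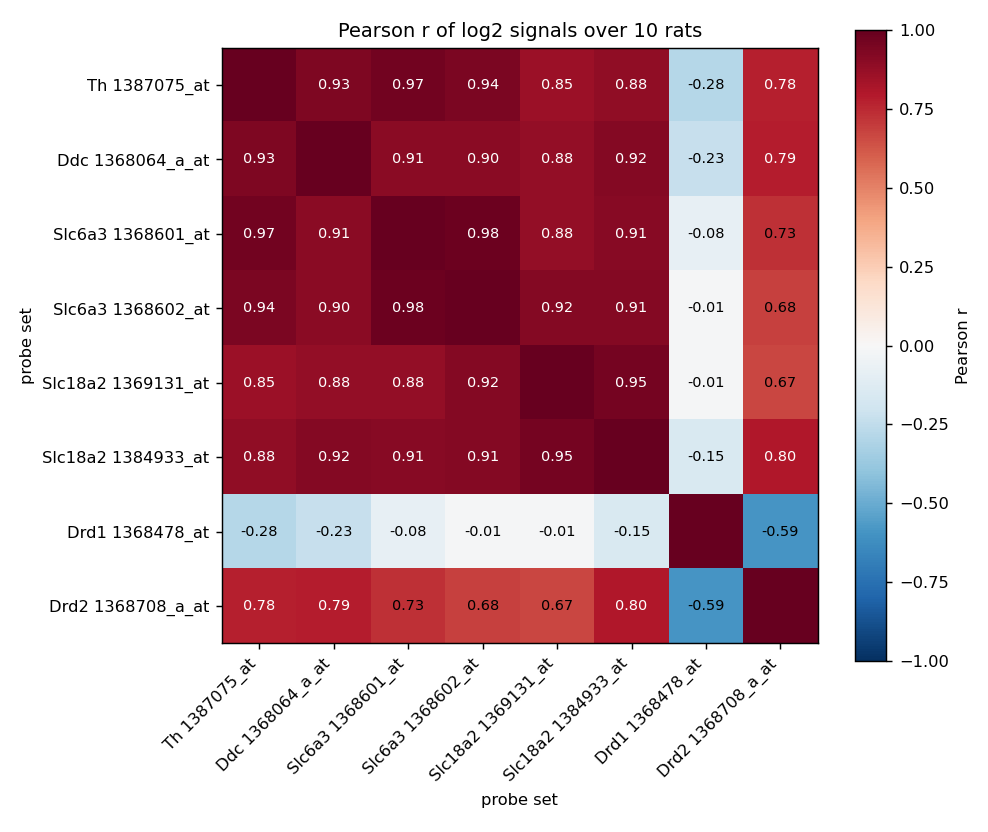
Pearson r over the 10 rats between the 8 varying catecholamine probe sets, with red for positive and blue for negative values. The 6 probe sets of Th, Ddc, Slc6a3 and Slc18a2 form a block with r of 0.85 and above, Drd2 joins it at 0.67 to 0.80, and the row of Drd1 holds values of -0.59 to -0.01.

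Since Th, Slc6a3 and Slc18a2 moved together, the bases before their starts are shown, as given by RefSeq for the assembly GRCr8; the array files name no assembly. Windows of 250 bases before a transcript start were found for 7 of the 8 genes, 9 windows in all, 3 of them of Ddc. They were searched on both strands for the cAMP response element TGACGTCA, which reads the same on both strands, and for the NBRE letters AAAGGTCA, to which nuclear receptors of the Nr4a family bind; these letter runs do not overlap each other. Capitals mark the cAMP response element. For Th and Slc6a3, the pair with the highest r, the bases of the window that lie before the annotated gene are given, both from the minus strand, chr1:207508277-207508468 for Th and chr1:31578963-31579212 for Slc6a3. For Slc18a2, 30 bases of the plus strand around the element are given, chr1:268399958-268399987, which lie inside the annotated gene upstream of a later transcript start.
Th: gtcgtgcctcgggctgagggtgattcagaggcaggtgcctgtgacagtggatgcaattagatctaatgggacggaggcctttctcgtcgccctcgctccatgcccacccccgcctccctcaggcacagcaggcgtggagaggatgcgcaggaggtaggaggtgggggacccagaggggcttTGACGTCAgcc
Slc6a3: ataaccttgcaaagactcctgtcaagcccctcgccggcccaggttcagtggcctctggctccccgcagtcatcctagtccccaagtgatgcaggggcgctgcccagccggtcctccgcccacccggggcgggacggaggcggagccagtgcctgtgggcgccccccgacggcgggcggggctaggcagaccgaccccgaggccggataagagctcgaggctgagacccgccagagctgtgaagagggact
Slc18a2: agtgctatccgTGACGTCAgagccggactg

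The cAMP response element was in 2 of the 9 windows, those of Th and Slc18a2, beside 531 of 33469 windows of all genes (1.59%). It begins 69 and 52 bases before the transcript start that the window precedes. For both, that start lies inside the annotated gene, so the printed Th bases end before it. The NBRE letters were in 1 window, of Ddc, beside 1.24% of all windows, and the window of Slc6a3 held neither. Genes with and without the element were thus among those that varied together, and a match of letters is a description only.

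Among the other 1014 or 1013 varying single-gene probe sets of other genes, the nearest to Th were Slc6a3, Ddc and Slc18a2, and the nearest to Ddc were Th, Slc18a2 and Slc6a3, ahead of all other genes. Each of the 6 synthesis and transport probe sets had 6 to 8 probe sets with r above 0.8, of which 4 or 5 belonged to other catecholamine genes and 2 or 3 did not. Ret, the receptor tyrosine kinase for ligands of the GDNF family, Slc10a4, a vesicular transporter-like protein of monoaminergic and cholinergic neurons, and Aldh1a1, an aldehyde dehydrogenase that makes retinoic acid and is found in a subset of dopamine neurons, recurred at the head of the rest. With Slc6a3 1368601_at, Slc10a4 had r = 0.91 (permutation p = 0.00035; rho = 0.88, permutation p = 0.00148), Ret r = 0.90 (permutation p = 0.0003; rho = 0.87, permutation p = 0.00227) and Aldh1a1 r = 0.90 (permutation p = 0.00027; rho = 0.90, permutation p = 0.0009), with adjusted p of 0.110 to 0.121 and with r of 0.79, 0.88 and 0.79 without Chow 3 and Chow 4. Chow 3 was the highest rat of Slc10a4 and Aldh1a1, and Chow 4 that of Ret.

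The remaining places were held by Lcn2, an iron-siderophore binding lipocalin, Degs1, a ceramide-forming desaturase, Clcc1, Tm4sf1, Bin2 and Ncor1, at r between 0.74 and 0.87. Lcn2 rested on the high rats: with Ddc it had r = 0.87 (permutation p = 0.00451; rho = 0.59, permutation p = 0.0829), and 0.38 without the 2 farthest rats. It was not alone in this. Without the 2 farthest rats, Ncor1 with Slc18a2 1369131_at fell from r = 0.74 to 0.33, and Degs1 with Ddc from 0.76 to 0.55. Clcc1 with Th (0.71), Tm4sf1 with Slc6a3 1368601_at (0.70) and Bin2 with Ddc (0.81) kept higher values. Around Drd2 the nearest were Polr3c, a subunit of RNA polymerase III, Phlda3, Mapkapk5 and Dguok, at r between 0.79 and 0.87, with Slc18a2 in the fourth place. Drd1 differed in the number of like probe sets, with 66 above r of 0.8 and 0 catecholamine probe sets among them. The nearest were Camk2a, a calcium-dependent kinase of forebrain excitatory neurons (r = 0.97, permutation p = 3e-05; rho = 0.95, permutation p = 7e-05), Tiam1, Enc1, Celf5 and Gda, at r of 0.95 to 0.96, all highest in Chow 1 and with r of 0.82 to 0.93 without the 2 farthest rats. After adjustment the smallest p among these was 0.0673.

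Other genes of catecholamine metabolism were mostly flat, as were 92.6% of all probe sets. Of 8 measured genes for cofactor supply and further synthesis steps, among them Pnmt, which makes adrenaline, and Gch1, which starts tetrahydrobiopterin synthesis, 7 were flat and 0 were called in either direction. Of 6 measured genes of catecholamine breakdown, 4 were flat, Maob had an SD of 0.068, and Aldh1a1 was the only one that varied. Its signals were 8.81, 8.63, 9.30, 9.08 and 8.80 in Chow 1 to 5, against 8.33, 8.40, 8.79, 8.88 and 9.03 in Powder 1 to 5. Chow 3 and Chow 4 were highest as for Th, but Powder 1 and Powder 2 were the low rats, and rank products called it higher in the C group (difference 0.24, SE 0.17, FDR 0.00702; adjusted p by limma 0.9995). Of all probe sets 0.921% were called higher, and of the varying ones 20.1%. The other dopamine receptors, 3 of 3 measured, and the adrenergic receptors, 8 of 8 measured, were flat, and 0 of them were called.

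Markers of the neurons that could carry these transcripts were read as well. Since 92.6% of all probe sets were flat, a flat marker does not show that its transcript or cells were absent. Of 11 measured markers of midbrain dopamine neurons, 8 were flat, including Pitx3, Foxa1, Foxa2, En2, Chrna6 and Chrnb3, while Nr4a2, Ret and Slc10a4 varied. Rank products called 1 of the 11, Ret, higher in the C group (difference 0.094, SE 0.073, FDR 0.0444; adjusted p by limma 0.9995), and 0 lower, and the median difference was 0.000163. For this and the next lists, 0.921% of all probe sets were called higher and 0.805% lower. Among varying probe sets the shares were 20.1% and 14.6%. The mean of the 3 varying markers deviated by -0.14 to 0.22 among C rats and by -0.18 to 0.15 among P rats, and Chow 3, Powder 5 and Chow 4 were its highest rats. Of the 4 measured noradrenaline neuron markers, Phox2a, Hand2 and Gata3 were flat, and Prph, an intermediate filament of peripheral and brainstem neurons, varied and was called lower (difference -0.14, SE 0.14, FDR 0.0209; adjusted p by limma 0.9995). Both measured serotonin markers, Slc6a4 and Fev, were flat. The histamine-forming enzyme Hdc, whose neurons lie in the hypothalamus and also use Slc18a2, was highest in Chow 5 and was called higher (difference 0.085, SE 0.078, FDR 0.0452; adjusted p by limma 0.9995), 1 of 3 measured genes of that list. Chow 5 had 9.36 for Hdc, and of the 4 rats high in Slc18a2, Chow 3 had 9.07, Chow 4 had 9.18, Powder 4 had 9.27 and Powder 5 had 8.97, so Powder 4 and Chow 4 followed Chow 5 and the other two did not.

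Of 13 measured genes of hypothalamic GABA and dopamine neurons, 6 were called lower in the C group and 0 higher, where 0.805% of all probe sets and 14.6% of the varying ones were called lower. By limma 1 had an unadjusted p below 0.05 and 0 passed after adjustment, and the median difference was -0.052. The 6 were Slc32a1, the vesicular GABA transporter (-0.13, SE 0.039), Nts (-0.16, SE 0.097), Dlx1 (-0.12, SE 0.068), Meis2 (-0.20, SE 0.11), Gad1 (-0.090, SE 0.071) and Gad2 (-0.14, SE 0.077). Gal and Pax6 varied without a call, with differences of -0.035 (SE 0.071) and -0.017 (SE 0.17). As a mean over the 7 varying genes of this list, C rats deviated by -0.11 to -0.0093 and P rats by -0.012 to 0.19. Of the 4 rats high in Th, Chow 3 was at -0.0093, Chow 4 at -0.022, Powder 4 at 0.0225 and Powder 5 at 0.0875, below Powder 1 at 0.19. Of 14 measured hypothalamic peptide and transcription factor genes, 7 were called lower and 0 higher, against the same 0.805% and 14.6%, with a median difference of -0.044 and 0 passing limma after adjustment. The 7 were Hcrt, Pmch, the neurohypophysial peptides Oxt (-0.25, SE 0.11) and Avp (-0.13, SE 0.22), the releasing hormones Crh (-0.18, SE 0.16) and Trh (-0.088, SE 0.082), and Cartpt (-0.097, SE 0.052), while Npy varied without a call (0.10, SE 0.081).

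Other tissue markers moved with rats as well. Chow 1, the highest rat of Drd1 and the lowest of Drd2, had the highest signal of Arpp21, a phosphoprotein of striatal and cortical neurons (9.65, against 8.15 to 8.33 among the remaining C rats and 8.03 to 8.30 among P rats). It also had the lowest signals of Hcrt (9.94, against 10.57 to 10.95 among the remaining C rats and 10.68 to 10.96 among P rats) and of Pmch (12.44, against 12.79 to 13.07 among the remaining C rats and 13.04 to 13.15 among P rats), peptides of the lateral hypothalamus. Crh (7.10), Trh (9.04) and Cartpt (10.97) were lowest in Chow 1 as well. Other genes of these lists went the other way there. Npy was the highest of all rats (9.98) and Avp the highest of the C rats (12.33). The striatal marker Tac1 was the lowest of all rats in Chow 1 (9.68). Of 13 measured striatal markers, 10 were flat, including Ppp1r1b, Adora2a, Rgs9 and Pde10a, beside 92.6% of all probe sets. Arpp21 was called higher and Tac1 lower, beside 0.921% and 0.805% of all probe sets. Of 12 measured leptomeningeal genes, the collagens Col1a1, Col1a2 and Col3a1, the proteoglycans Lum, Dcn, Ogn and Fmod, and Mgp, Ptgds, Slc6a13, Igf2 and Aldh1a2, all were called higher by rank products, where 20.1% of varying probe sets were, and 0 by limma (adjusted p 0.9995), with differences of 0.18 to 0.36. Their mean was highest in Chow 1 and Chow 4 (deviations of 0.80 and 0.65), with -0.43 to 0.80 among C rats and -0.70 to 0.42 among P rats. Chow 3, the highest rat in Th, had -0.43 there and Powder 5 had -0.20. Of 10 measured pituitary genes, 8 were flat, Prl and Gh1 among them, and Cga and Tshb were high in Chow 4 and Chow 5, with a mean of -0.39 to 2.11 among C rats and -0.47 to -0.31 among P rats. Both were called higher by rank products and neither by limma (adjusted p 0.9995). Tshb was at least 6.14 in C rats and at most 6.08 in P rats (exact permutation p = 0.00794, unadjusted), and 0.432% of all probe sets were fully separated. The part of dissection or of neighboring tissue in the levels of Drd1, Drd2 and the other catecholamine genes was not tested.

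**Figure D5:**
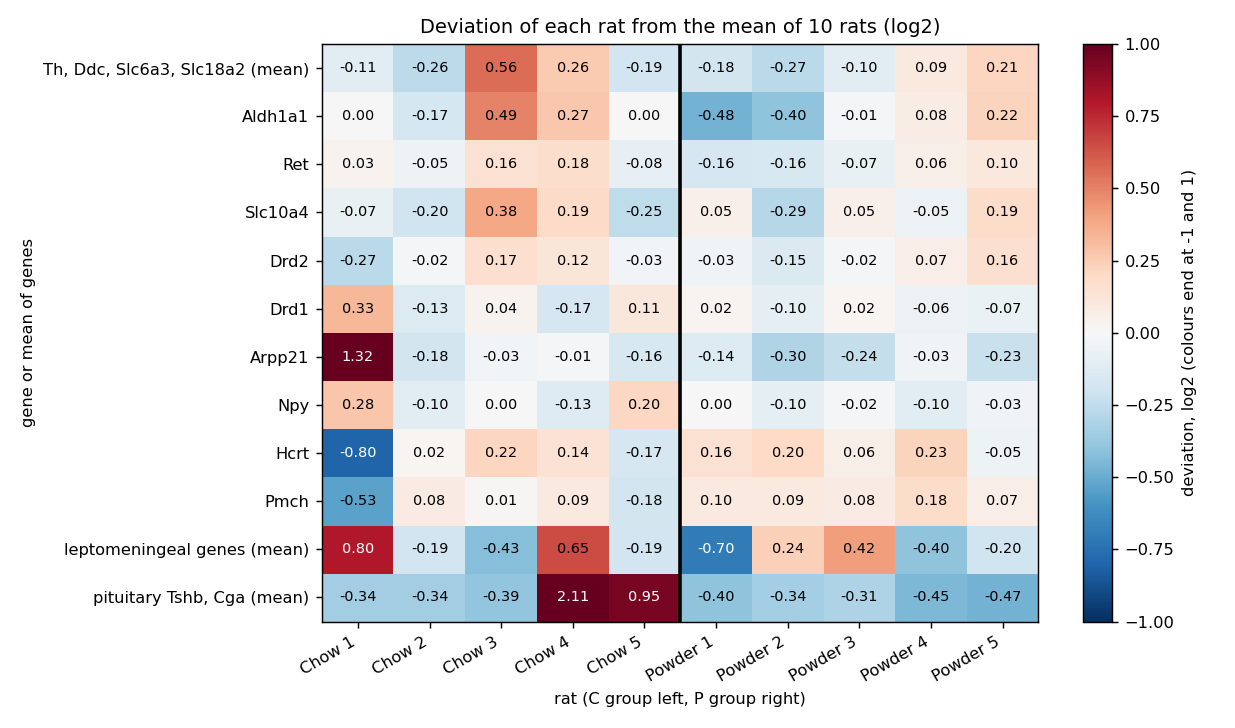
Deviation of each rat from the mean of the 10 rats, in log2 units, for the mean of the 6 varying synthesis and transport probe sets, single genes and the means of leptomeningeal and pituitary genes; the C group is left of the black line and the P group right of it, and colors end at -1 and 1. Aldh1a1, Ret and Drd2 share the high values of Chow 3, Chow 4 and Powder 5 with the synthesis and transport genes. Drd1, Arpp21 and the hypothalamic Npy are highest in Chow 1, where Hcrt and Pmch are lowest.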

How the data were processed

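Hypothalamic RNA of 10 male rats was hybridized to 1 Affymetrix array each. Scans were summarized by the authors in R 2.7.2 with FARMS (factor analysis for robust microarray summarization). The deposited values are log2 signals per probe set, between 5.23 and 13.96, used as they are. Columns were joined to rats by the sample names that head them, and 0 columns were left unmapped. An array has no read depth, and the number of arrays limits the precision. The labels do not say whether rats shared a cage, and no scan batch was given in the sources used here.

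Of 31099 probe sets, 57 controls were left out. The array annotation named a single gene for 20826 probe sets (14217 genes), several for 436 and none for 9780. All 8 catecholamine symbols were matched in the RefSeq gene table of GRCr8. FARMS shrinks values toward a constant where probes disagree, so levels were not compared between probe sets.

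Differences are C minus P. Rank products were computed in Python 3.11.15 (numpy 2.4.6, pandas 2.3.3) from 25 C and P rat pairs with 100 permutations and called at an FDR below 0.05. Limma 3.58.1 in R 4.3.3 gave Benjamini-Hochberg adjusted p over 31042 probe sets. Correlations over rats had p from 100000 permutations, adjusted over 8082 pairs. For list genes with several probe sets, the one with the largest SD stood for the gene. Rank products, limma and the correlation test were also run on simulated data, with results not given here. Plots used matplotlib 3.10.9.

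The text names all probe sets of the 8 genes, genes of the lists that were called or had an SD above 0.1, and the 5 probe sets of other genes nearest to each varying probe set by Pearson r. Flat marker genes, and Chow 1 values of Arpp21, Hcrt, Pmch, Crh, Trh, Cartpt, Npy, Avp and Tac1, were picked out after their values were seen. The genes and lists were chosen with earlier results of these data known. Nothing in the sources says that same-numbered rats belong together, and the replicate block is an alternative only. The alternatives were centring on the median, quantile normalization, a replicate block, fits without single rats and without Chow 1 and Chow 4 together, filters on the mean or SD, rank sums, an FDR of 0.01, scaling by the within-group SD, trended and robust variances, array weights, means over probe sets and, for correlations, group means or the 2 farthest rats taken out.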

Additional observations from a re-analysis of the deposited data

Results flagged for a closer look

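In 59 probe sets of the genes named here, each group of 5 rats was searched for a rat whose gap to the nearest other rat was past Dixon's critical value as a share of the group's range. Of 118 such groups, 7 held one, a number near the share of about 5% that chance gives, and 0 of the 7 were in the catecholamine probe sets: the highest and lowest rats of Th, Slc6a3 and Drd1 did not stand apart by this measure.

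In the C group, Chow 1 was lowest in Nts, at 8.54 against 8.93 to 9.02 in the other rats, and highest in Arpp21, at 9.65 against 8.15 to 8.33. In the P group, Powder 1 was lowest in Nr4a2, a transcription factor of dopamine neurons (7.12 against 7.54 to 7.69). Powder 1 was also highest in Camk2a (9.92 against 9.76 to 9.80) and in Enc1 (10.45 against 10.32 to 10.35), both near to Drd1. Powder 4 was highest in Degs1 (8.46 against 8.18 to 8.22) and in Pmch (13.15 against 13.04 to 13.07).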

How the results depend on the processing

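The calls of Th and Slc6a3 held under some changes of the test and were lost under others. As a mean over its probe sets, Slc6a3 was called higher by rank products (difference 0.165, FDR 0.0169). Of the 13 catecholamine probe sets, 2 were called, and 2 again with quantile normalization or median centring. The count was 0 without Chow 1 and Chow 4, with an SD above 0.1 required, with rank sums and with differences scaled by the within-group SD. It was 1, Slc6a3 1368601_at, with the mean above the median or an FDR below 0.01. Leaving out single rats gave 0 to 4. Over all probe sets, the same changes gave 46, 1, 1, 36, 124 and 96 calls higher in the C group, against 286, and with single rats left out 115 to 355. Calls lower in the C group were 252 without Chow 1 and Chow 4, 4 with the SD required, 6 with rank sums, 82 with scaling, 97 with the mean above the median and 96 at the stricter FDR, against 250, and 99 to 326 with single rats left out. Limma called 0 under each alternative, and 0 to 1 with single rats left out. The causes were not tested.

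Whether the numbers of the rats pair them is not known. Same-numbered pairs deviated from their group means with r of -0.35 to 0.26, and differently numbered pairs with r of -0.53 to 0.49. These values cannot tell whether same-numbered rats shared a cage or a batch. With a replicate block, 202 probe sets were called higher and 323 lower by rank products, 2 of the 13 catecholamine probe sets were called, and limma called 0.

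Differences turned sign in the fits without single rats given above. They lay between -0.038 and 0.25 for Th, -0.064 and 0.072 for Ddc, -0.029 and 0.39 and -0.035 and 0.20 for Slc6a3, -0.0054 and 0.082 for Slc18a2 1384933_at, -0.0046 and 0.12 for Drd1 and -0.053 and 0.056 for Drd2, which was 0.036 without Chow 1 and Chow 4. Correlations of Drd1 turned positive without the 2 farthest rats with Slc6a3 (0.040 and 0.16) and Drd2 (0.11), and with single rats left out r of Drd1 lay between -0.50 and 0.10 with Ddc, -0.21 and 0.060 and -0.17 and 0.14 with Slc6a3, and -0.17 and 0.14 and -0.31 and 0.14 with Slc18a2. In all correlation alternatives 0 of the 26 pairs passed after adjustment.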
